A study of Mus musculus with 20 samples.

Results

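The genes described here encode voltage-gated calcium and sodium channels, the proteins that let calcium or sodium into a neuron when its membrane depolarises. They were chosen by symbol alone: pore-forming calcium channel subunits (Cacna1), their alpha2delta (Cacna2d), beta (Cacnb) and gamma (Cacng) subunits, and pore-forming and beta subunits of sodium channels (Scn). Of 19938 genes that the platform table names by a single symbol, 35 matched, measured by 51 of 35557 probe sets. Of these, 31 passed the minimum on signal (an intensity over 32 on at least 2 arrays) and were tested among 15057 genes. RNA came from C57BL/6 mice aged 7 to 8 weeks, all of the same strain, that were dark adapted for 3 h at no more than 0.4 lux or light adapted for 6 h at 450 lux. Laser capture isolated the photoreceptor layer (nuclei with inner and outer segments), the ganglion cell layer and, between them, the inner nuclear and inner plexiform layers, and whole retina was taken beside them. Each of the 10 combinations of 5 tissues and 2 adaptation states has 2 arrays, 20 in all. Since no label links an array to an animal, p-values reflect how far the deposited samples spread, which may be technical only. A layer holds several cell types, and fewer cells of a type and less RNA per cell cannot be told apart in it.

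As background, a calcium channel is built around a pore subunit, with a cytoplasmic beta and an extracellular alpha2delta subunit that carry it to the membrane and tune its gating. Photoreceptors release glutamate continuously from ribbon synapses through L-type channels, and in rods and cones the pore is the product of Cacna1f, with the alpha2delta subunit Cacna2d4. Loss of either gene in mice or people impairs the signal from photoreceptors to bipolar cells. Conventional synapses use P/Q-type (Cacna1a) and N-type (Cacna1b) pores, while T-type pores (Cacna1g, Cacna1h and Cacna1i) open near the resting potential. Most Cacng genes are known for partners of AMPA-type glutamate receptors at postsynaptic sites. Sodium channels carry the action potential, and in ganglion cells they are packed at the start of the axon.

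Levels are deposited intensities, and differences are log2 values from the fit with their standard error (SE), where a difference of 1 is 2-fold. A gene was called where limma's Benjamini-Hochberg adjusted p over all tested genes was under 0.05. The layer labels were set against marker lists first. All 5 tested rod markers were called higher in the photoreceptor layer and all 7 ganglion cell markers in the ganglion cell layer, each against the other 3 layers. The bipolar markers averaged 7.01 (log2) in the inner nuclear layer against 5.67 to 6.45 in the other layers, and 4 of 5 were called higher there. Called higher in that layer were also 1 of 6 Müller cell, 0 of 6 amacrine and 0 of 5 horizontal cell markers. The inner plexiform layer had 3 of 6 amacrine, 2 of 6 Müller cell and 2 of 5 bipolar markers called higher. The lists thus separated the inner nuclear and inner plexiform layers less clearly than the photoreceptor and ganglion cell layers. The light-adapted arrays of the inner plexiform layer stood apart in a list of skeletal muscle genes, with means of 7.24 and 6.87 (log2) against 5.36 to 6.62 on the other arrays. Y-linked probe sets were bright on 5 arrays, all of them light adapted. They were array 1 of the photoreceptor layer, inner nuclear layer and whole retina, and both arrays of the ganglion cell layer. Without them the ganglion cell layer keeps only its dark-adapted arrays, so Y-linked signal and adaptation cannot be told apart in that layer. Some calls of a channel gene in a layer against the other 3 ended without the Y-linked or the light-adapted inner plexiform arrays. Those calls are given with their values without these arrays.

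The pore of the photoreceptor L-type channel, Cacna1f, was highest in the photoreceptor layer. There it had intensities of 229.7 and 307.7 on the dark-adapted and 178.7 and 284.2 on the light-adapted arrays. The inner nuclear layer had 175.2 and 195.9 in the dark and 88.7 and 141.7 in the light. Arrays of the inner plexiform layer had 150.4 and 153.1 (dark) and 149.6 and 142.1 (light), and those of the ganglion cell layer 123.9 and 93.9 (dark) and 125.2 and 117 (light). The photoreceptor arrays were the high ones, and the only overlap with another layer was between their lowest array, at 178.7, and the highest inner nuclear array, at 195.9. Cacna1f averaged 7.94 ± 0.35 (log2, SD, n = 4) in the photoreceptor layer against 7.07 ± 0.33 (n = 12) over the other 3 layers, a difference of 0.86 (SE 0.15, adjusted p = 0.000802). Pair by pair it was 0.76 higher in the photoreceptor than in the inner nuclear layer, 0.72 higher than in the inner plexiform layer and 1.10 higher than in the ganglion cell layer. The lower 3 layers could not be ordered, since the inner nuclear minus inner plexiform difference was -0.05 (SE 0.18) and the inner plexiform minus ganglion cell difference was 0.38 (SE 0.18). Against the other 3 layers together the ganglion cell layer was lower, by a difference of -0.60 (SE 0.15, adjusted p = 0.0435), a call that ended in 20 of 30 alternatives. It was -0.61 (adjusted p = 0.0749) without the light-adapted inner plexiform arrays and -0.80 (adjusted p = 0.0725) without the arrays with Y-linked signal.

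Cacna2d4, the alpha2delta subunit of the same channel, had 327.5 and 338 in the dark and 285.1 and 363.2 in the light in the photoreceptor layer. The inner nuclear layer had 186 and 276.4 (dark) and 170.6 and 234.2 (light). In the inner plexiform layer the values were 200.6 and 213.7 (dark) and 208.5 and 245.4 (light), and in the ganglion cell layer 135.7 and 117.3 (dark) and 127 and 118.6 (light). All photoreceptor arrays lay above, and all ganglion cell arrays below, every array of the other layers. The photoreceptor layer was 0.87 higher than the other 3 layers (SE 0.13, adjusted p = 0.000216), and the ganglion cell layer differed from the other 3 by -0.99 (SE 0.13, adjusted p = 0.000576). In the order photoreceptor, inner plexiform, inner nuclear, ganglion cell layer, only the middle pair was not told apart (inner nuclear minus inner plexiform -0.02, SE 0.16). Cacna2d4 was also the member with the smallest p in a test for any difference between the 4 layers (adjusted p = 0.000136).

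**Figure D1:**
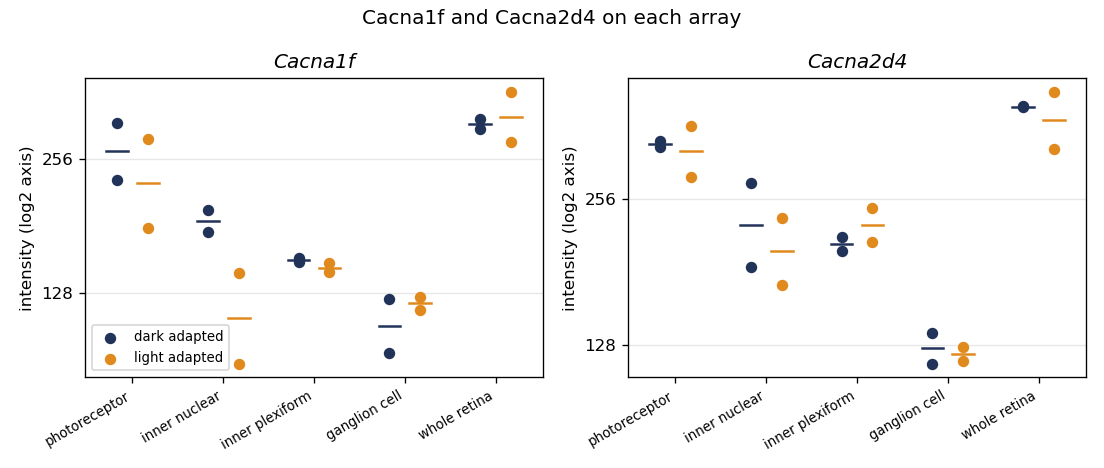
Deposited intensity (log2 axis) of Cacna1f (left) and Cacna2d4 (right) on each array by tissue, with dark-adapted arrays left of light-adapted ones and a bar at the mean of each pair. Cacna2d4 lies between 285.1 and 363.2 in the photoreceptor layer and between 117.3 and 135.7 in the ganglion cell layer.

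Rod markers moved with Cacna1f on some arrays and not on others. On the light-adapted ganglion cell layer array 2 the rod list averaged 7.45 (log2), against 5.28 to 6.04 on the other 3 arrays of that layer. Cacna1f had 117 and Cacna2d4 118.6 there, within the range of the other 3. In the inner nuclear layer the rod list averaged 6.54 and 7.16 on the dark-adapted against 5.36 and 5.33 on the light-adapted arrays, and Cacna1f was also higher on the dark-adapted ones. Any part of rod RNA in these levels was not tested. Over the 10 group means, Cacna1f and Cacna2d4 had a Pearson correlation of 0.925, given as a description over groups that share their arrays. The genes most like Cacna1f by that measure were Rims2, a scaffold protein of the release site (0.983), Cul4a (0.982), Fsd1l (0.980), Dlg1 (0.978) and Aff1 (0.977). Those most like Cacna2d4 were Slc38a3 (0.969), Spcs2 (0.966), Prpsap2 (0.962), Mtcl1 (0.962) and Smad5 (0.960).

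The promoter of Cacna1f is shown because the photoreceptor layer had its highest levels among the layers, and many photoreceptor promoters carry the letters TAATCC, a motif of the transcription factors CRX and OTX2. It is the RefSeq sequence of GRCm38.p6 from 250 bases before to 50 after the annotated start, at chrX:7606853-7607152 on the plus strand, with the letters CANNTG (an E box, either strand) in capitals.
Cacna1f: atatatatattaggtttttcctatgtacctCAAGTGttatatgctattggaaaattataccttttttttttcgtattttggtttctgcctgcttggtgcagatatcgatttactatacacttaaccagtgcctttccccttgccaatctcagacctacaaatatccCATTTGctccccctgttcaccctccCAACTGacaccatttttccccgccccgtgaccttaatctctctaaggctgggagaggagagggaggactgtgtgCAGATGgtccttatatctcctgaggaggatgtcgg
It held CANNTG 4 times and TAATCC on neither strand. RefSeq promoters were found for 23 of the 31 tested channel genes (32 promoters). Of these, 9.38% held TAATCC on either strand against 7.06% of all 32851 promoters of the same length, and 65.6% held CANNTG against 72.3%. The genes with TAATCC were Cacna1c, Cacna1s and Cacng8. Both strands were searched and overlaps between the motifs were kept; a match describes letters and not a bound site.

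Most other channel genes that differed in the photoreceptor layer were lower there. Of the 31 tested, 2 were called higher, Cacna1f and Cacna2d4 (background 7.26% of all genes), and 10 were called lower (32.3%, background 5.69%). Either way that was 12 of 31 (38.7%) against 12.9% of all genes, and the median difference of the members was -0.31 against -0.06 over all genes. The 10 lower genes were 4 pores (Cacna1a, Cacna1b, Cacna1g and Cacna1h), 3 alpha2delta subunits (Cacna2d1, Cacna2d2 and Cacna2d3), the beta subunit Cacnb4 and the gamma subunits Cacng4 and Cacng8. None of the 8 tested sodium channel genes was called in this layer. The count fell to 4 without light-adapted photoreceptor array 2, to 5 without dark-adapted array 2, to 7 without either of the other photoreceptor arrays and to 6 when the arrays with Y-linked signal were left out. Cacna1f, Cacna2d4, Cacng4 and Cacna1h kept their calls in all 30 alternatives.

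**Figure D2:**
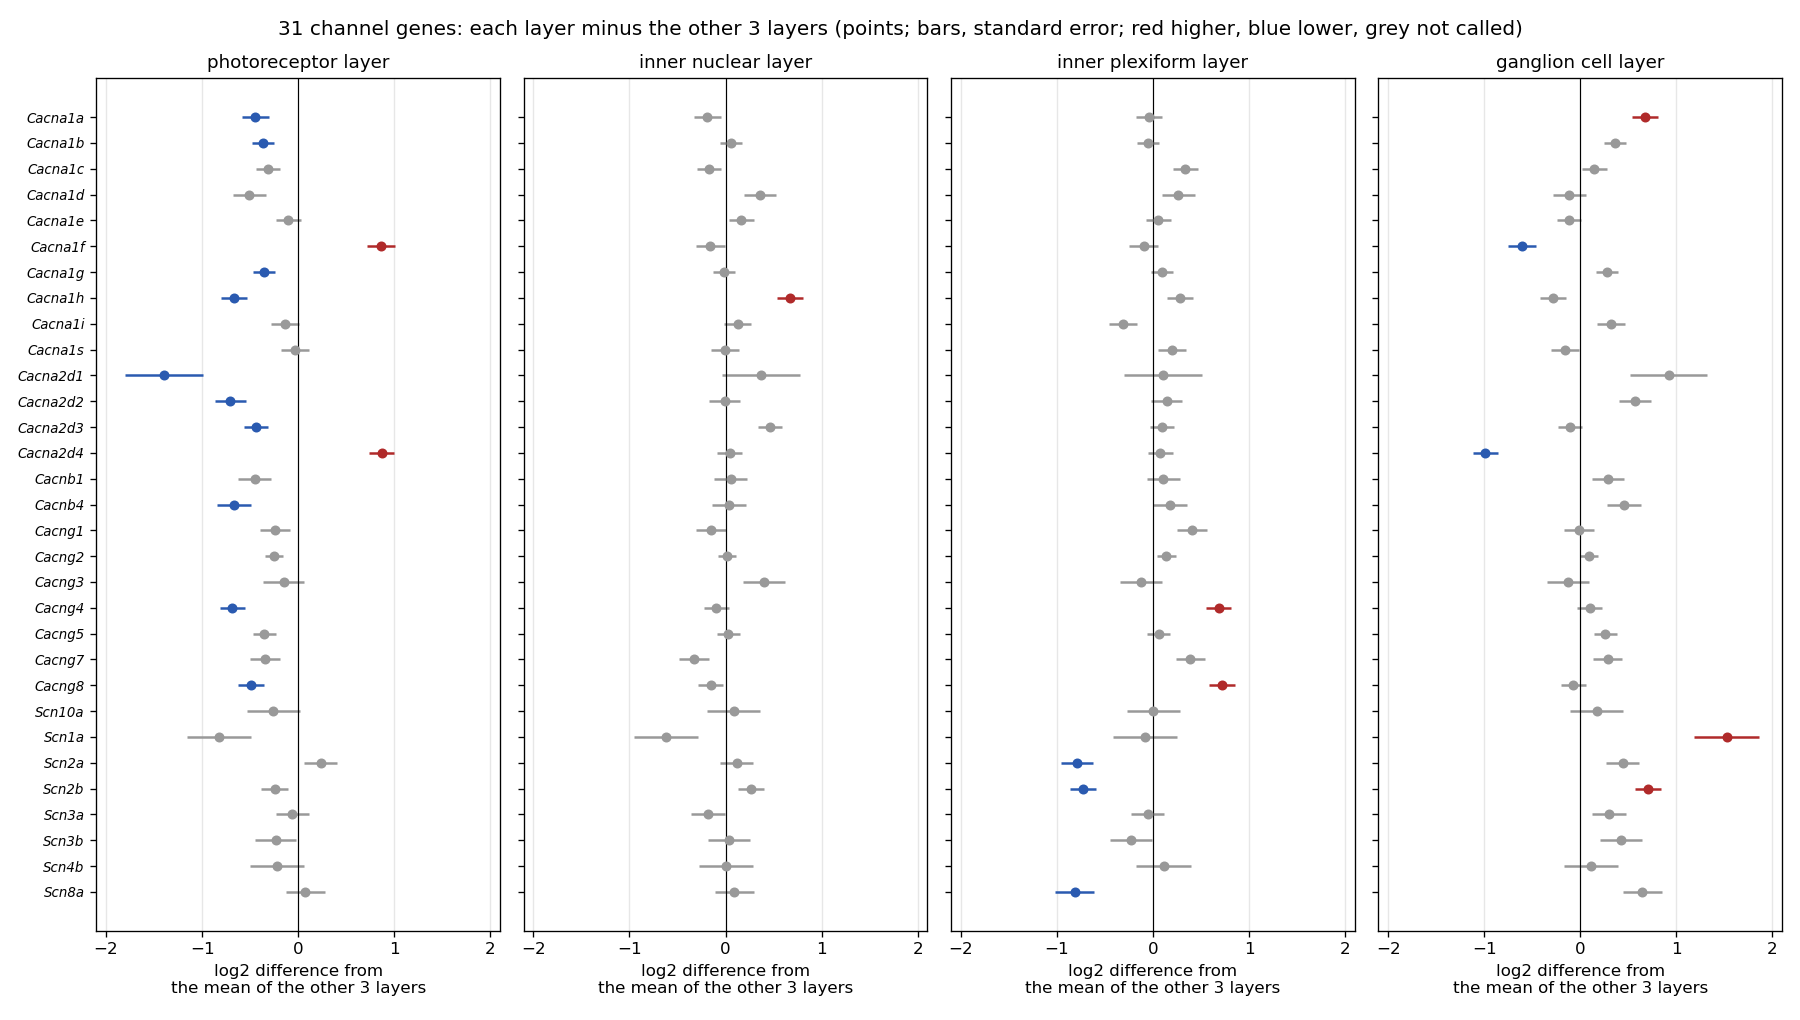
Log2 difference (x axis, points with bars of 1 standard error) of each tested channel gene, rows in order of symbol, in each layer against the other 3 layers. Red points are called higher, blue points called lower and grey points not called; in the photoreceptor panel Cacna1f and Cacna2d4 lie to the right of 0 and 10 genes are called to its left.

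Among the T-type pores, which generate currents near the resting potential, Cacna1h differed most between layers. It had 69.6 and 63.9 (dark) and 102.3 and 74.5 (light) in the photoreceptor layer, and 142.6 and 128.7 (dark) and 153.6 and 195.9 (light) in the inner nuclear layer. For the inner plexiform layer the values were 136.2 and 121.2 (dark) and 157.6 and 94.1 (light), and for the ganglion cell layer 89.7 and 105.6 (dark) and 91.3 and 87.3 (light). All inner nuclear arrays lay above all photoreceptor and ganglion cell arrays. Cacna1h was lower in the photoreceptor layer than in the other 3 layers, by a difference of -0.67 (SE 0.14, adjusted p = 0.00363), and 1.01 lower there than in the inner nuclear layer alone (difference -1.01, SE 0.17, adjusted p = 0.00131). In the inner nuclear layer, which holds bipolar, amacrine, horizontal and Müller cells, it was 0.67 higher than in the other 3 layers (SE 0.14, adjusted p = 0.0354). It was the only one of 31 channel genes called in that comparison (3.23%, with a background of 0.252% higher, 0.359% lower and 0.611% either way), and the call held in 16 of 30 alternatives. Without the arrays with Y-linked signal the inner nuclear difference of Cacna1h was 0.78 (adjusted p = 0.178). Cacna1g was lower in the photoreceptor layer (difference -0.36, SE 0.11, adjusted p = 0.0490), with 55.1 and 49.6 (dark) and 64 and 58.5 (light) against 62.2 to 90.7 in the other layers. That call of Cacna1g held in 2 of 20 fits with 1 array left out each, and the difference was -0.39 (adjusted p = 0.140) without the arrays with Y-linked signal. Cacna1i ranged from 25.9 to 53.2 over all arrays and was not called in any layer.

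The P/Q-type pore Cacna1a was highest in the ganglion cell layer, with 113.1 and 157.7 in the dark and 108.2 and 121.7 in the light. The photoreceptor layer had 78.5 and 58.4 (dark) and 74.2 and 67.2 (light). In the inner nuclear layer it had 66.1 and 64.5 (dark) and 99.9 and 91.3 (light), and in the inner plexiform layer 78.7 and 92.7 (dark) and 71.6 and 101.1 (light). No array of another layer reached the lowest ganglion cell array. Cacna1a was 0.68 higher in the ganglion cell layer than in the other 3 layers (SE 0.14, adjusted p = 0.0145), but not past the threshold in some alternatives. The difference was 0.63 without light-adapted array 2 of that layer (adjusted p = 0.0781), 0.56 without dark-adapted array 2 (adjusted p = 0.169) and 0.81 without the arrays with Y-linked signal (adjusted p = 0.130). It was lower in the photoreceptor layer, by a difference of -0.44 (SE 0.14, adjusted p = 0.0402). The N-type pore Cacna1b was also lower in the photoreceptor layer (difference -0.37, SE 0.11, adjusted p = 0.0381), with 70.1 and 71 (dark) and 56.5 and 69.9 (light) there and 101.8 and 104.3 (dark) and 88.6 and 95.1 (light) in the ganglion cell layer. Each of these photoreceptor calls of Cacna1a and Cacna1b held in 8 of 20 fits with 1 array left out. Without the arrays with Y-linked signal the differences were -0.51 for Cacna1a (adjusted p = 0.122) and -0.33 for Cacna1b (adjusted p = 0.234). The photoreceptor minus ganglion cell difference was -0.84 for Cacna1a and -0.55 for Cacna1b, both called.

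None of the other calcium channel pores was called in a layer against the other 3. Cacna1d, an L-type pore of neurons and endocrine cells, ranged from 41.1 to 104.9, with 41.1 to 58.4 in the photoreceptor layer (difference from the other layers -0.51, SE 0.17, adjusted p = 0.0610). Cacna1c, an L-type pore widely expressed in heart and brain, ranged from 28 to 54.9 and was 0.49 lower in the photoreceptor than in the inner plexiform layer (difference -0.49, SE 0.16, adjusted p = 0.0343). Cacna1e, the R-type pore, ranged from 37.9 to 63.3 and was called in no comparison. Cacna1s, the pore of skeletal muscle, ranged from 43.8 to 89.1 and was called in no layer. The skeletal muscle list was highest on the light-adapted inner plexiform arrays, where Cacna1s had 71.9 and 82.6 and the muscle gamma subunit Cacng1 105.7 and 55.2; on the dark-adapted arrays of that layer Cacna1s had 89.1 and 53.8 and Cacng1 86.7 and 60. Any part of muscle RNA in these levels was not tested.

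Of the other alpha2delta subunits, each was lower in the photoreceptor layer. Cacna2d2, a subunit that binds gabapentin as Cacna2d1 does, had 49.5 and 56.4 (dark) and 69.9 and 65.5 (light) in the photoreceptor layer. It had 100.7 and 146.9 (dark) and 83.7 and 146.4 (light) in the ganglion cell layer, and 67.3 to 149.6 in the inner nuclear and inner plexiform layers. Only the lowest inner plexiform array overlapped the photoreceptor arrays. The photoreceptor difference was -0.70 for Cacna2d2 (SE 0.16, adjusted p = 0.00857). It was -0.68 (adjusted p = 0.0531) without light-adapted photoreceptor array 2 and -0.66 (adjusted p = 0.0557) without dark-adapted array 1. Cacna2d3 had 42.7 and 46.4 (dark) and 51.1 and 48.8 (light) in the photoreceptor layer against 51.1 to 86.2 in the other layers, a difference of -0.44 (SE 0.13, adjusted p = 0.0266). Without the arrays with Y-linked signal it was -0.49 for Cacna2d3 (adjusted p = 0.0785), and the calls of Cacna2d3 and of Cacna2d1 each held in 16 of 20 fits with 1 array left out. Cacna2d1 was dim, with 9.9 and 8.9 (dark) and 12.1 and 11.2 (light) in the photoreceptor layer against 16.3 to 71.9 in the other layers. Its photoreceptor arrays overlapped no other layer (difference -1.40, SE 0.40, adjusted p = 0.0291), but only 7 of its 20 values exceeded the minimum of 32.

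The beta subunits were dim. Cacnb4, a beta subunit of brain whose loss causes the lethargic phenotype in mice, had 32.7 and 20.7 (dark) and 40.8 and 30.9 (light) in the photoreceptor layer. The other layers had 33.9 to 71.8, with the highest value on light-adapted ganglion cell layer array 2. The photoreceptor difference was -0.66 (SE 0.18, adjusted p = 0.0193). It was -0.75 (adjusted p = 0.0600) without the arrays with Y-linked signal, -0.56 (adjusted p = 0.127) without light-adapted photoreceptor array 2 and -0.50 (adjusted p = 0.159) without dark-adapted array 2. Cacnb1, the muscle beta subunit, ranged from 17.6 to 44.1 and was called in no layer. Cacnb2, known as the beta subunit of the photoreceptor channel in mice, ranged from 8.4 to 45.4 and exceeded the minimum on 1 array, so that it was not tested.

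Of the gamma subunits, Cacng4 and Cacng8, which bind AMPA receptors, had their highest levels in the inner plexiform layer, the zone of synapses onto ganglion cells. Cacng4 had 229.6 and 240.2 (dark) and 316.6 and 201.6 (light) in the inner plexiform layer. The photoreceptor layer had 105.2 and 127.7 (dark) and 122 and 124.2 (light), the inner nuclear layer 143.2 to 187.2 and the ganglion cell layer 155.3 to 207.4. The photoreceptor arrays were the lowest of all layers with no overlap, and the inner plexiform arrays overlapped only the highest ganglion cell array. Cacng4 was 0.69 higher in the inner plexiform layer (SE 0.13, adjusted p = 0.00342) and lower in the photoreceptor layer (difference -0.69, SE 0.13, adjusted p = 0.00211). The photoreceptor minus inner plexiform difference of Cacng4 was -1.03 (SE 0.16, adjusted p = 0.000395).

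Cacng8 had 119 and 76.6 (dark) and 135.9 and 132.4 (light) in the inner plexiform layer. It had 71 and 57.6 (dark) and 60.7 and 53.5 (light) in the photoreceptor layer, and 69.2 to 78.9 in the inner nuclear and ganglion cell layers. The light-adapted inner plexiform arrays were the highest, and the lower dark-adapted one lay within the range of the ganglion cell layer. Cacng8 was 0.72 higher in the inner plexiform layer than in the other layers (SE 0.13, adjusted p = 0.00242) and lower in the photoreceptor layer (difference -0.49, SE 0.13, adjusted p = 0.0198). Without the light-adapted inner plexiform arrays, the inner plexiform difference was 0.47 for Cacng8 (adjusted p = 0.290) and 0.63 for Cacng4 (adjusted p = 0.117), neither of them called. The photoreceptor difference of Cacng8 was -0.41 (adjusted p = 0.0756) without those arrays and -0.55 (adjusted p = 0.0741) without the arrays with Y-linked signal. It was -0.44 (adjusted p = 0.110) without light-adapted photoreceptor array 2 and -0.41 (adjusted p = 0.133) without dark-adapted array 2. Cacng8 lies next to Cacng7, and Cacng4 between Cacng1 and Cacng5, among the protein-coding genes of chromosomes 7 and 11. Their neighbours did not share the calls: Cacng1, Cacng5 and Cacng7 were called in no layer against the other 3. The promoter of Cacng8 is shown as the one of a gamma subunit with the letters TAATCC. RefSeq places it at chr7:3393792-3394091 (GRCm38.p6), printed on the plus strand. The capitals mark the match, which lies on the opposite strand and is printed as its reverse complement.
Cacng8: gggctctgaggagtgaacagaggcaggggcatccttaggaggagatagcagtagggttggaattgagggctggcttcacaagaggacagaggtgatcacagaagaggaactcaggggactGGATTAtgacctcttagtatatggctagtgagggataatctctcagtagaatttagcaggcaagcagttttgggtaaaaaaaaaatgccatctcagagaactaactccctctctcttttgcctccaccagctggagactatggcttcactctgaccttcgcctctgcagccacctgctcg

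**Figure D3:**
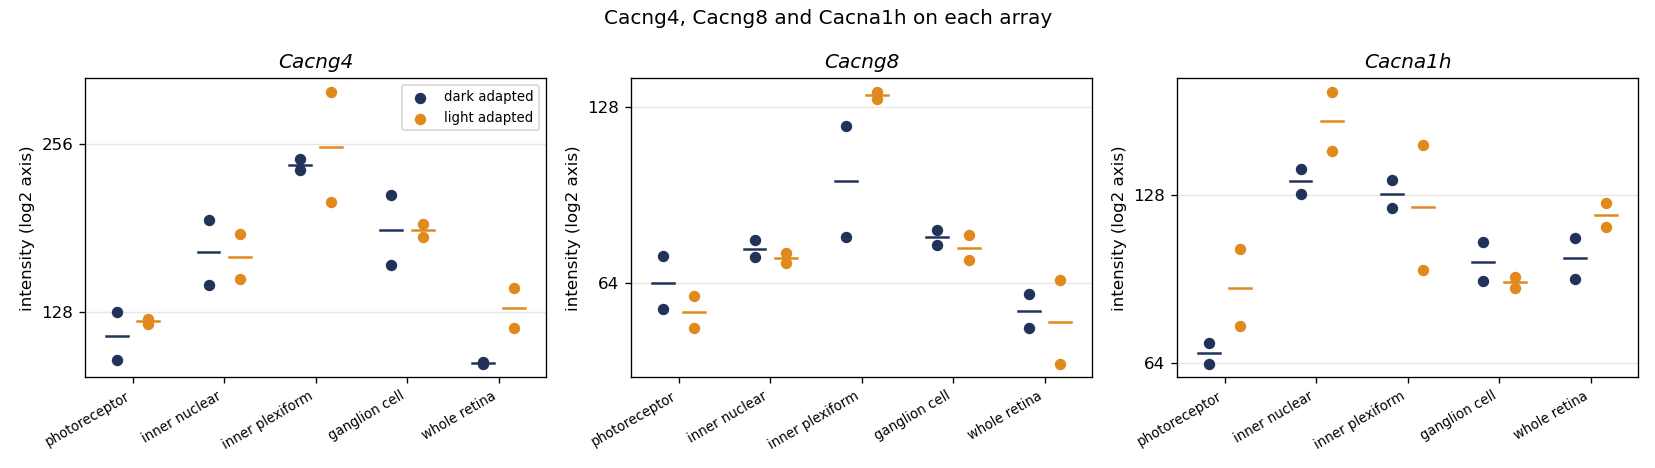
Deposited intensity (log2 axis) of Cacng4, Cacng8 and Cacna1h on each array by tissue, with dark-adapted arrays left of light-adapted ones and a bar at the mean of each pair. Cacng4 and Cacng8 are highest in the inner plexiform layer and Cacna1h in the inner nuclear layer, where it lies between 128.7 and 195.9.

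None of the remaining gamma subunits was called in a layer against the other 3. Cacng2, known as stargazin, ranged from 160.1 to 294.9 and was not called in any layer. Cacng7 ranged from 184.3 to 539 and Cacng5 from 59.9 to 111.9, both known as AMPA receptor partners of a second type. Cacng7 was lower in the photoreceptor than in the inner plexiform layer (difference -0.55, SE 0.19, adjusted p = 0.0455). Cacng3 ranged from 15.7 to 77.2 and Cacng1 from 43.8 to 105.7.

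Sodium channel genes differed between layers mainly in the inner plexiform and ganglion cell layers. Scn2a, a pore of axons in the central nervous system, had 103.4 and 136.6 (dark) and 87.6 and 109.5 (light) in the inner plexiform layer. The photoreceptor layer had 192.1 and 207.6 (dark) and 182.8 and 157.3 (light), and the inner nuclear layer 161.7 and 151.7 (dark) and 167.6 and 217.8 (light). The ganglion cell layer had 210.9 and 268.7 (dark) and 117.2 and 265.2 (light). Apart from its low light-adapted array at 117.2, the ganglion cell layer lay above the inner plexiform layer, whose difference from the other 3 layers was -0.79 for Scn2a (SE 0.17, adjusted p = 0.00641). Scn2a has 14 probe sets, of which 9 passed the minimum. All 14 had their highest layer mean in the ganglion cell layer, but only 3 had their lowest in the inner plexiform layer and 10 had it in the photoreceptor layer. With the mean of the probe sets that passed in place of the brightest, the inner plexiform difference was -0.43 (adjusted p = 0.250).

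Scn8a, the main pore of mature nodes and axon initial segments, had 33.3 and 42.3 (dark) and 15.9 and 15.9 (light) in the inner plexiform layer. Arrays of the ganglion cell layer had 36.6 and 53.4 (dark) and 43.7 and 86.9 (light), the photoreceptor layer 31 to 43.1 and the inner nuclear layer 28.8 to 55.5. The light-adapted inner plexiform arrays were the lowest of all. The inner plexiform difference was -0.81 (SE 0.20, adjusted p = 0.0143). Without those arrays it was -0.19 for Scn8a (adjusted p = 0.828) and -0.65 for Scn2a (adjusted p = 0.259).

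Scn1a, a pore found in inhibitory neurons and in ganglion cells, was dim outside the ganglion cell layer, where it had 19.5 and 49.1 (dark) and 38.2 and 102.4 (light). The photoreceptor layer had 10.9 and 11.7 (dark) and 18.2 and 12.3 (light), and the inner nuclear layer 11.6 and 18 (dark) and 14.1 and 14.8 (light). In the inner plexiform layer it had 14.7 and 38.1 (dark) and 16.3 and 14.6 (light). The ganglion cell layer was 1.52 higher than the other 3 layers for Scn1a (SE 0.33, adjusted p = 0.0244), the widest such difference of a channel gene, with overlap through dark-adapted inner plexiform array 2. The call held in 23 of 29 alternatives. The difference was 1.17 (adjusted p = 0.186) without light-adapted ganglion cell array 2 and 1.19 (adjusted p = 0.265) without dark-adapted array 2. It was 1.42 (adjusted p = 0.0729) without the light-adapted inner plexiform arrays and 1.06 (adjusted p = 0.448) when those with Y-linked signal were left out. Ganglion cell layer arrays 2 of both states were also the highest in the ganglion cell marker list, which averaged 8.09 on dark-adapted array 2 and 8.27 on light-adapted array 2 of the layer against 7.28 and 7.55 on its other arrays (log2). The inner plexiform array with 38.1 had a marker mean of 6.37, against 5.14 to 5.64 on the other 3 of that layer. How far the content of ganglion cell RNA set these levels was not tested.

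Scn2b, a beta subunit that is bound to the pore and also acts in cell adhesion, was high in the ganglion cell layer and low in the inner plexiform layer. It had 54.2 and 36.6 (dark) and 68.1 and 67.5 (light) in the ganglion cell layer. The inner plexiform layer had 28.1 and 36.6 (dark) and 19.8 and 22.6 (light). The inner nuclear layer had 38.2 and 38 (dark) and 45.6 and 54.9 (light), and the photoreceptor layer 32.8 and 29.5 (dark) and 38.9 and 33.4 (light). The dark-adapted ganglion cell array at 36.6 lay among or below the arrays of the other layers, and only the highest inner nuclear array, at 54.9, overlapped the other 3. Scn2b was 0.71 higher in the ganglion cell layer than in the other 3 (SE 0.14, adjusted p = 0.0104) and lower in the inner plexiform layer (difference -0.73, SE 0.14, adjusted p = 0.00289). The ganglion cell difference was 0.40 without the arrays with Y-linked signal (adjusted p = 0.698), and the inner plexiform difference was -0.43 without the light-adapted inner plexiform arrays (adjusted p = 0.333). The inner plexiform minus ganglion cell difference was -1.08 for Scn2b, -1.10 for Scn8a and -0.93 for Scn2a, all called. Genes most like Scn2b over the 10 group means were Arc (Pearson correlation 0.965), Hottip (0.940), Tmem163 (0.933), Smyd1 (0.926) and Aacs (0.918).

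**Figure D4:**
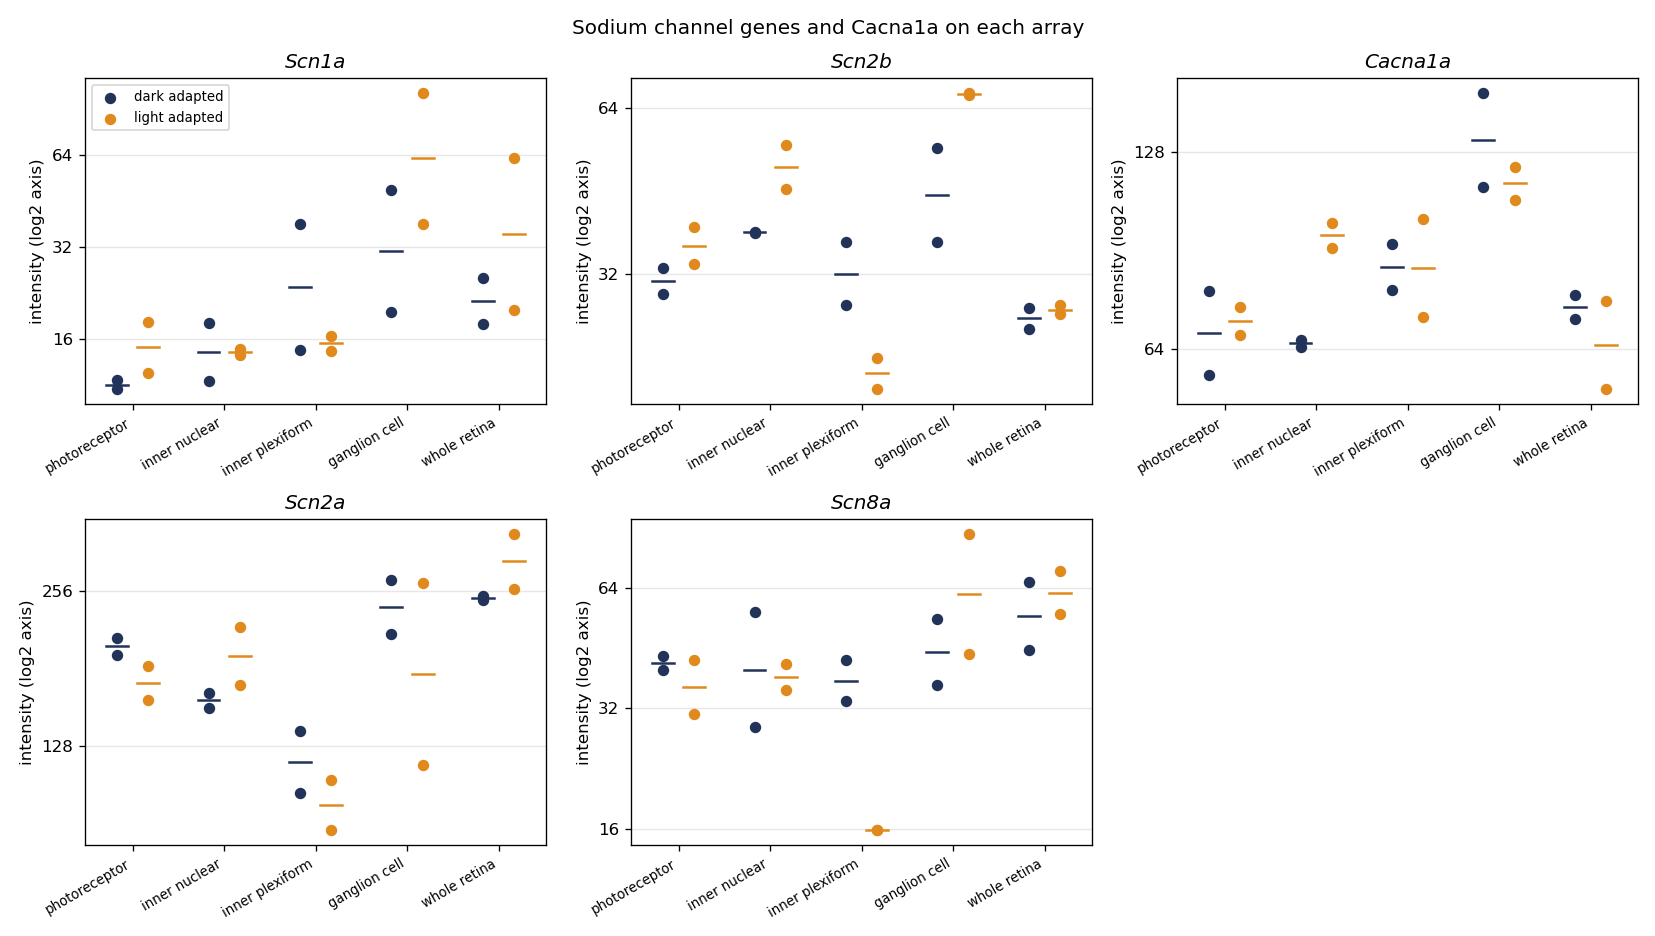
Deposited intensity (log2 axis) of the sodium channel genes Scn1a, Scn2a, Scn2b and Scn8a and the calcium channel gene Cacna1a on each array. Arrays are ordered by tissue, with dark-adapted ones left of light-adapted ones and a bar at the mean of each pair. Scn1a reaches 102.4 and Scn2b 68.1 in the ganglion cell layer, and Scn8a has 15.9 on both light-adapted inner plexiform arrays.

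The promoters of the sodium channel genes called higher in the ganglion cell layer are shown with CANNTG in capitals. RefSeq (GRCm38.p6) places that of Scn1a at chr2:66440788-66441087 on the minus strand and that of Scn2b at chr9:45117626-45117925 on the plus strand.
Scn1a: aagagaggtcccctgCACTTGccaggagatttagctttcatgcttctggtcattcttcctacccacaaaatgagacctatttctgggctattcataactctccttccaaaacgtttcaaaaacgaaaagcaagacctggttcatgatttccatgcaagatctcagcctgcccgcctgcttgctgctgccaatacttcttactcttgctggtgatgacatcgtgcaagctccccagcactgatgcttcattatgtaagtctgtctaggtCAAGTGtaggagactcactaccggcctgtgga
Scn2b: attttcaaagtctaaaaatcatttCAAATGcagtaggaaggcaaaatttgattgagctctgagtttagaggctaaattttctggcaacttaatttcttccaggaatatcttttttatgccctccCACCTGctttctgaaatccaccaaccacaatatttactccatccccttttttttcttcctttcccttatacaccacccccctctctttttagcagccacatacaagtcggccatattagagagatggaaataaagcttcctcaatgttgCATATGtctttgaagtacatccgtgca
Scn1a held CANNTG 2 times and Scn2b 3 times, and TAATCC was in neither window.

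The other sodium channel genes were dim. Scn3a, a pore most abundant before birth, ranged from 20.6 to 48.7, Scn3b from 11.8 to 37.6 and Scn4b from 14.1 to 58.3, and none was called in a layer. The pores known from peripheral sensory neurons stayed near or under the minimum of 32. Scn10a ranged from 11.8 to 36.6 and exceeded it on 2 arrays, Scn11a ranged from 19 to 32.9 and Scn9a reached 27. Scn7a, an atypical sodium-sensing channel, ranged from 4.9 to 19.3. Scn7a, Scn9a and Scn11a were not tested. Scn3a and Scn2a, and Scn1a, Scn9a and Scn7a, lie side by side among the protein-coding genes of chromosome 2, and Scn2b beside Scn4b on chromosome 9.

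Compared pair by pair, the photoreceptor layer differed from the ganglion cell layer in 11 of 31 channel genes (35.5%, background 7.66%), from the inner plexiform layer in 10 (32.3%, background 21.4%) and from the inner nuclear layer in 4 (12.9%, background 5.33%). Inner plexiform and ganglion cell layers differed in 4 (12.9%, background 3.1%), inner nuclear and inner plexiform layers in 3 (9.68%, background 4.85%) and inner nuclear and ganglion cell layers in Cacna2d4 alone (3.23%, background 0.458%). Of these 33 gene by pair differences, 17 were still called without light-adapted photoreceptor array 2 and 17 without dark-adapted array 2. Without the light-adapted inner plexiform arrays 20 were still called, and 14 without the arrays with Y-linked signal.

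Fewer channel genes were called in the other layers than in the photoreceptor layer. The inner plexiform layer had 5 of 31 channel genes called (16.1%, background 13.6%): Cacng4 and Cacng8 higher (6.45%, background 8.29%) and Scn2a, Scn2b and Scn8a lower (9.68%, background 5.29%). These shares were near those of all genes, and all 5 calls ended without the light-adapted inner plexiform arrays. In the ganglion cell layer Cacna1a, Scn1a and Scn2b were higher (9.68%, background 1.17%) and Cacna1f and Cacna2d4 lower (6.45%, background 0.704%), 5 in all (16.1%, background 1.87%), and the median of the members was 0.26 against -0.01 over all genes. That count of 5 was 2 without light-adapted or dark-adapted array 2 of the ganglion cell layer, 3 without light-adapted photoreceptor array 2 and 1 when the arrays with Y-linked signal were left out. A test for any difference between the 4 layers called 12 of 31 (38.7%, background 16.5%), of which 6 were still called without the arrays with Y-linked signal.

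Whole retina was higher than the mean of the 4 layers for the photoreceptor channel. Cacna1f had 298.9 and 315 (dark) and 279.9 and 361.7 (light) in whole retina, a difference of 1.00 from the layers (SE 0.14, adjusted p = 7.56e-05). Cacna2d4 had 397.2 and 398.3 (dark) and 325.1 and 426.3 (light), a difference of 0.89 (SE 0.13, adjusted p = 6.63e-05). For both genes the whole retina arrays lay within or above the range of the photoreceptor layer, and the rod list averaged 8.98 (log2) in whole retina and 9.26 in the photoreceptor layer. Of the 31 genes, 7 were called higher in whole retina (22.6%, background 19.9%) and 7 lower (22.6%, background 28.6%), together 45.2% against 48.5% of all genes. The others called higher were Scn2a (0.72), Scn8a (0.64), Cacna1d (0.50), Cacna2d1 (0.99) and Scn3a (0.43). Called lower were Cacnb1 (-0.61), Cacng4 (-0.55), Scn2b (-0.49), Cacng8 (-0.48), Cacng2 (-0.37), Cacna1s (-0.36) and Cacna1a (-0.33). The median difference of all genes was itself -0.18, and that of the members -0.12. The count of 14 was 7 without light-adapted whole retina array 2, 9 without dark-adapted array 1 and 8 without dark-adapted array 2.

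Dark and light adaptation did not separate any channel gene past the threshold. In limma, 0 of 31 were called in each of the 5 tissues, where the background was 0.0465% of all genes for photoreceptors, 0% for the inner nuclear, 1.83% for the inner plexiform and 0.00664% for the ganglion cell layer, and 0.0266% for whole retina. Averaged over tissues the count was also 0 (background 0.0133%), as it was in the test of whether the dark effect differed between tissues (background 0.0266%). At an unadjusted p under 0.05 there were 0 channel genes for photoreceptors, 2 for the inner nuclear, 9 for the inner plexiform and 2 for the ganglion cell layer, 0 for whole retina, 1 for the average and 3 for the test between tissues. The share of all genes at that unadjusted threshold was not counted, so these counts cannot be set against a background. Each tissue has 2 arrays against 2 here, so a difference that was not called is not shown to be absent.

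For the photoreceptor channel, the dark minus light difference in the photoreceptor layer was 0.24 for Cacna1f (SE 0.26) and 0.05 for Cacna2d4 (SE 0.22). Without the arrays with Y-linked signal these differences, neither of them called, were -0.096 for Cacna1f and -0.13 for Cacna2d4. In the inner nuclear layer Cacna1f had 175.2 and 195.9 in the dark against 88.7 and 141.7 in the light, with no overlap, and the difference of 0.72 (SE 0.26, unadjusted p = 0.0117) had an adjusted p of 1. The rod list moved the same way there, with means of 6.54 and 7.16 (log2) on the dark-adapted against 5.36 and 5.33 on the light-adapted arrays, and its part in the difference was not tested. Cacna1f and Cacna2d4 differed by less than their SE between dark and light in the ganglion cell layer and in whole retina.

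In the inner plexiform layer, Scn8a had 33.3 and 42.3 in the dark against 15.9 and 15.9 in the light, a difference of 1.24 (SE 0.35, adjusted p = 0.0760). Cacng2 had 199.2 and 203.4 in the dark against 294.9 and 289.8 in the light, a difference of -0.54 (SE 0.16, adjusted p = 0.0981). Neither gene's groups overlapped on the probe set tested, and each was called under some alternatives. Cacng2 was called with no minimum on signal (adjusted p = 0.0354) and with a minimum at 7 on the log2 scale (0.0444). Scn8a was called with the replicate number in the fit (0.0165). Both light-adapted arrays behind these values are those with the high skeletal muscle list. On the probe set tested, the dark minus light difference of Cacng2 was also negative in each of the other tissues, between -0.07 and -0.15. Its average over all 5 was -0.20 (SE 0.07, adjusted p = 0.709). Cacng2 has 2 probe sets, both past the minimum. The one not used had 51.3 and 154.7 (dark) against 83.9 and 104.7 (light) in the inner plexiform layer, which overlap. Its mean was higher in the dark only in the ganglion cell layer (6.07 against 6.00, log2). Scn2b had a dark minus light difference of 0.60 in the inner plexiform layer (adjusted p = 0.185) and of -0.61 in the ganglion cell layer (adjusted p = 1), and it had the smallest p in the test between tissues (adjusted p = 0.767).

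**Figure D5:**
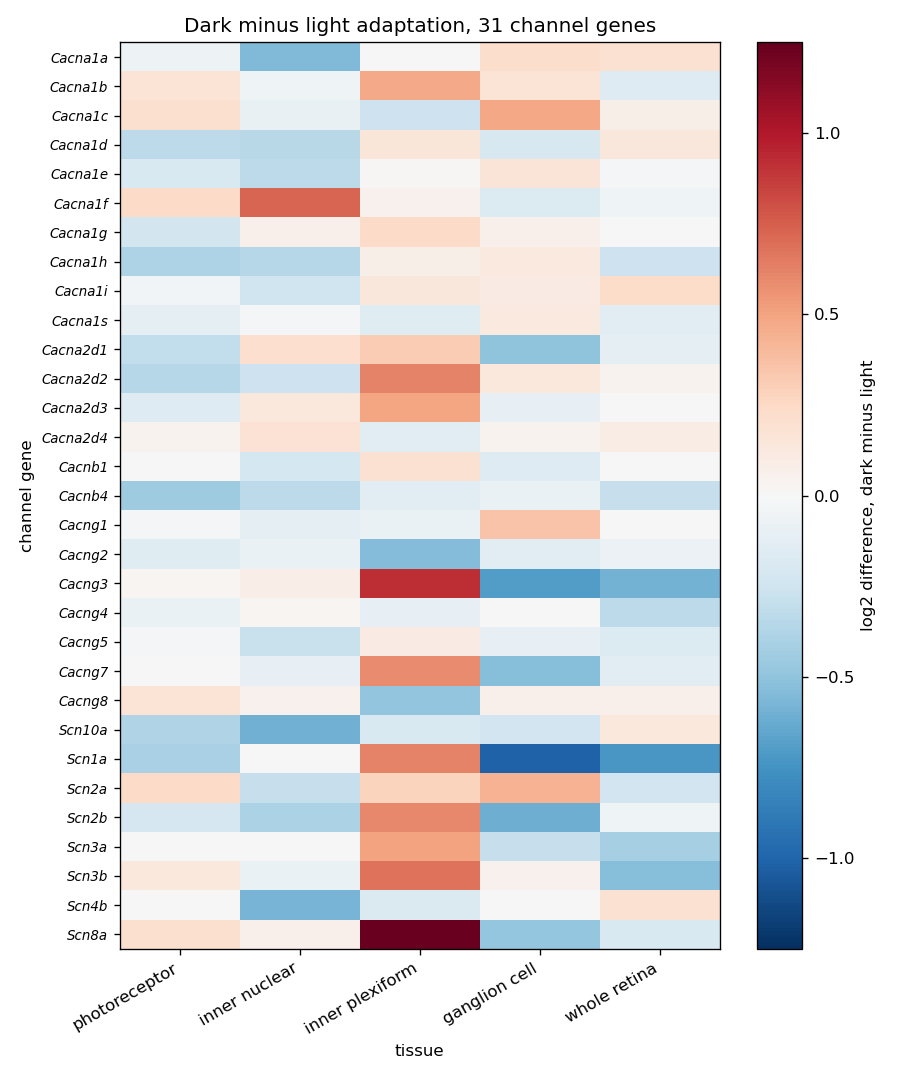
Dark minus light log2 difference (colour scale, red higher in the dark and blue lower) of each tested channel gene (rows) in each tissue (columns). No cell is called; Scn8a at 1.24 and Cacng2 at -0.54 in the inner plexiform layer have the smallest adjusted p.

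The known partners of these channels were read from lists chosen with earlier results of these data known. Of 24 partners of calcium channels at the release site, 23 were tested, and 6 were called higher (26.1%, background 7.26%) and 5 lower (21.7%, background 5.69%) in the photoreceptor layer. Higher there were Unc119 (2.14, SE 0.20), a photoreceptor synaptic protein that binds the calcium-binding protein Cabp4; Stx3, the syntaxin of ribbon synapses (1.19, SE 0.12); Rims2, a release-site scaffold (1.20, SE 0.20); and Cabp4 itself, which binds the Cacna1f pore (0.55, SE 0.15). The others higher were Unc13b, a priming factor of synaptic vesicles (0.68, SE 0.19), and Lrit1, a transmembrane protein of photoreceptor synapses (0.67, SE 0.17). The 5 lower ones included the release-site scaffolds Rims1 (-0.84, SE 0.20), Erc1 (-0.78, SE 0.24) and Bsn (-0.44, SE 0.12). Stac2, an adaptor of L-type channels, had a difference of -1.06 (SE 0.19) and the calcium-binding protein Cabp1 one of -0.49 (SE 0.15). The inner nuclear layer had 1 partner higher (4.35%, background 0.252%), Cabp5, a calcium-binding protein of bipolar cells (1.37, SE 0.27). The inner plexiform layer had 3 higher (13%, background 8.29%), Rrad (1.30, SE 0.14), Bsn (0.54, SE 0.12) and Stac2 (0.72, SE 0.19). The ganglion cell layer had Rims1 higher (0.86, SE 0.20; 4.35%, background 1.17%) and Stx3 (-0.78), Unc119 (-1.39) and Ctbp2 (-0.55) lower (13%, background 0.704%).

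Of 21 partners of sodium channels at the axon initial segment and node, 20 were tested, and 8 were called lower (40%, background 5.69%) and 1 higher (5%, background 7.26%) in the photoreceptor layer. The lower ones included the axonal adhesion proteins Cntnap1 (-0.86, SE 0.19), Cntnap2 (-0.83, SE 0.20) and L1cam (-0.56, SE 0.13), and the higher one was Nedd4l, a ubiquitin ligase that acts on sodium channels (0.67, SE 0.11). In the ganglion cell layer 2 were higher (10%, background 1.17%) and 0 lower: L1cam (0.72, SE 0.13) and Fgf12, an intracellular modulator of sodium channels (1.26, SE 0.29). The inner nuclear layer had 0 called and the inner plexiform layer had 1 higher (5%, background 8.29%), Kcna1 (0.67, SE 0.13). The median difference of the sodium channel partners in the ganglion cell layer was 0.42 against -0.01 over all genes. No partner of either list was called between dark and light adaptation in any tissue.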

How the data were processed

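The authors deposited 1 linear intensity for each probe set and array, made with GCRMA per the submitters' processing notes (version not given in the sources used here) from biotinylated cRNA of the 2-cycle protocol. That the intensity is linear was read from the values, whose medians per array were 37.5 to 40.8. Values under 8 (11.3% to 14.1% of an array) were set to 8 and log2 was taken. Of the probe sets, 21789 have 1 symbol in the platform table, 1621 have several and 12147 are absent from it. Those entering the tests had 1 symbol and a log2 value over 5 (intensity 32) on at least 2 arrays, and a gene was represented by its brightest probe set.

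All tests came from 1 limma fit (3.58.1, R 4.3.3) of 10 group means on 20 arrays, with 10 residual degrees of freedom, an intensity trend and two-sided tests adjusted over 15057 genes in each comparison. The fit was tested on simulated data with 100 genes changed by 1 (log2) and 100 by 2 at once, in either direction, for each of 2 comparisons. Of those changed by 1 it recovered 95% in the photoreceptor layer against the other 3 layers, and 29% between dark and light in the inner plexiform layer. For those changed by 2 it recovered 100% and 96%. Genes not changed for the comparison were called 19 and 6 times. The simulated noise was independent and normal, without a replicate effect, and the real group differences were taken out. Recovery in the deposited data may therefore differ. Precision is limited by the number of arrays. The replicate numbers were not taken as pairing the samples, since the labels do not say what they mark. Replicate differences of 2 groups were nevertheless correlated, all 45 pairs of groups positively (0.0059 to 0.479, median 0.127) and 32 of them by over 0.1. With the number in the fit, a replicate effect was called in 7.98% of genes. The main fit leaves this out, and only the alternative with the replicate number as a block holds it. The members, lists and tests were chosen with earlier results of these data known. Per-array values are printed for Cacna1f, Cacna2d4 and the up to 5 members with the smallest p called in each direction in each layer, and for other members as noted in the text after their values were seen. The alternatives were quantile normalisation, an added 16 in place of the floor, no minimum or one at 7, the mean of probe sets, no trend, the replicate number as a block, the arrays compared alone, leaving out the light-adapted inner plexiform arrays or those with Y-linked signal, and leaving out each array in turn.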

Additional observations from a re-analysis of the deposited data

Results flagged for a closer look

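Of 155 groups of 4 arrays (each tested channel gene in each tissue), 9 had 1 array whose gap to its nearest neighbour, as a share of the group's range, exceeded Dixon's critical value; chance gives about 1 in 20 such groups. In the photoreceptor layer these were Cacna1b, low on light-adapted array 1 (56.5 against 69.9 to 71 on the other 3), Cacna1s, low on dark-adapted array 2 (56.1 against 66.6 to 68.3), and Scn3b, high on dark-adapted array 1 (25.5 against 20.7 to 21.1). In the inner nuclear layer Cacna1i was high on light-adapted array 1 (53.2 against 34.2 to 36.4), Cacng2 was high on light-adapted array 2 (251.9 against 217.8 to 221.1) and Scn10a was low on dark-adapted array 2 (11.8 against 26.9 to 27.2). Scn1a was high on dark-adapted array 2 of the inner plexiform layer (38.1 against 14.6 to 16.3), the array with the highest ganglion cell marker mean of that layer. Cacna1d was low on dark-adapted array 1 of the ganglion cell layer (46.6 against 60.4 to 62.5), and Cacng2 was low on dark-adapted array 1 of whole retina (160.1 against 177.9 to 180.4).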

How the results depend on the processing

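Of 942 combinations of a named value and an alternative, 867 kept direction and side of the threshold, 61 lost the call and 14 changed sign. Of 20 named calls, 7 held under all alternatives run. The 867 include dark minus light differences of Cacna1f and Cacna2d4 that kept their side by staying not called. Left out of the named calls were, among others, the photoreceptor calls of Cacna1a, Cacna1b, Cacna1g, Cacna2d1 and Cacna2d3, whose stability is given above. The sign changes were all in dark minus light differences of Cacna1f and Cacna2d4, none of them called. Without the arrays with Y-linked signal these were -0.096 for Cacna1f and -0.13 for Cacna2d4 in the photoreceptor layer, and -0.047 in the inner nuclear layer and -0.10 in whole retina for Cacna2d4. Leaving out each array in turn gave, for Cacna1f, -0.096 to 0.57 in the photoreceptor layer, -0.37 to 0.034 in the ganglion cell layer and -0.24 to 0.13 in whole retina. For Cacna2d4 it gave -0.13 to 0.22 in the photoreceptor, -0.10 to 0.47 in the inner nuclear and -0.065 to 0.14 in the ganglion cell layer, -0.10 to 0.29 in whole retina and -0.0096 to 0.10 on average. The cause of the lost calls and sign changes was not tested. With no minimum on signal, the counts of channel genes called were 0 in the inner nuclear layer, 3 in the ganglion cell layer and 1 between dark and light in the inner plexiform layer. With a minimum at 7, where fewer genes are tested, they were 7 in the photoreceptor, 3 in the inner plexiform layer, 2 for the ganglion cell layer, 6 in whole retina, 21 over the 6 pairs of layers (33 as reported) and 1 between dark and light in the inner plexiform layer. With no intensity trend, and with only the arrays compared, the inner nuclear count was 0. With the replicate number as a block, 1 gene was called between dark and light in the inner plexiform layer, and no other count moved by over 1.5 times. Without the light-adapted inner plexiform arrays the counts were 0 in the inner plexiform layer, 3 in the ganglion cell layer and 21 over pairs of layers. Without the arrays with Y-linked signal they were 6 in the photoreceptor, 0 in the inner nuclear and 1 in the ganglion cell layer, 6 in the test for any difference and 14 over pairs. Leaving out each array in turn gave 4 to 13 in the photoreceptor, 0 to 1 in the inner nuclear layer, 5 to 8 for the inner plexiform layer, 2 to 7 for the ganglion cell layer, 7 to 15 in whole retina, 8 to 15 in the test for any difference, 17 to 35 over pairs, and 0 to 0 between dark and light in every tissue and on average. Comparisons that lost a group without the light-adapted inner plexiform or Y-linked arrays were not run. Signal limits Scn1a, Scn3a, Scn3b, Scn4b, Scn10a, Cacnb1 and Cacna2d1 most, which exceeded the minimum on 2 to 7 of 20 arrays.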

Other observations

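With the replicate number in the fit, replicate 2 minus replicate 1 was 0.87 for Cacna2d1 (adjusted p = 0.0239) and 0.41 for Scn8a (adjusted p = 0.0467), the 2 called of 31 channel genes (6.45%), a share no higher than the 7.98% of all genes. The labels do not say what the number marks. No cause was tested.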
